A study of Mus musculus with 32 samples.

Results

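The 10 genes of the elastic fibre and of its crosslinking followed here are the elastin gene Eln, the fibrillin genes Fbn1 and Fbn2, the fibulin genes Fbln1, Fbln2 and Fbln5, the emilin gene Emilin1, and the lysyl oxidase genes Lox, Loxl1 and Loxl2. They were chosen by gene symbol, and all 10 were found among the 20560 genes of the deposited expression table. The table comes from RNA sequencing of 32 libraries of 3T3-L1 cells, a clonal mouse preadipocyte line that is turned into fat-storing cells by hormones. Cells carried 1 of 2 short hairpin RNAs (shRNA 1 or shRNA 2) against Zbtb9, which encodes a zinc finger and BTB domain protein, or a scramble hairpin as control. All groups were differentiated alike, in medium with 10% serum, and sampled at days 0, 3, 7 and 11. At day 0 the cells received insulin (167 nM), the glucocorticoid dexamethasone (1 µM) and the phosphodiesterase inhibitor isobutylmethylxanthine (0.5 mM), at day 3 insulin only, and at day 7 medium without these. Each day had 4 control libraries and 4 knockdown libraries, 2 from each shRNA.

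Elastic fibres give tissues their recoil. Their core is elastin, deposited on a scaffold of fibrillin microfibrils, and fibulins and emilins bind at the border of core and scaffold. Lysyl oxidases are secreted copper enzymes that oxidise lysine side chains in elastin and collagens, so that the chains join into insoluble fibres. Preadipocytes are fibroblast-like cells that make such a matrix and remodel it as they turn into fat cells.

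Values per library are given as normalized reads, that is, whole reads rebuilt from the deposited log2 values and divided by the library's size factor. Changes are differences on the deposited log2 scale with their standard error (SE), tested with limma and Benjamini-Hochberg adjustment over all genes tested, and a gene is said to rise, fall or be called only at an adjusted p under 0.05. The libraries held from 22280357 to 31073714 rebuilt reads in genes. Zbtb9 itself was low, at 6.35 to 22.3 normalized reads in control libraries and 0 to 19.3 in knockdown libraries. Its knockdown mean was below the control mean on each day, at 61.9%, 50.6%, 42.7% and 54.5% of it at days 0, 3, 7 and 11. The deposited log2 values appear to draw genes with few reads towards their mean. Log2 changes of Zbtb9 and Loxl2 were smaller than their ratios of normalized reads. Zbtb9 passed the test at day 7 (log2 change -0.35, limma adjusted p = 0.0288), though with neither shRNA alone (-0.32 and -0.37, adjusted p = 0.104 and 0.0685). It did not pass at days 0 and 11 (adjusted p = 0.271 and 0.173), and at day 3 it had too few reads for the joint fit. With the shRNAs as separate groups it did not pass at day 3 (-0.29 with shRNA 1 and -0.14 with shRNA 2, adjusted p = 0.16 and 0.542). At day 11 it was lower with shRNA 2 (-0.49, limma adjusted p = 0.0214) and did not pass with shRNA 1 (-0.08, adjusted p = 0.731), and the difference between them of -0.42 did not pass (adjusted p = 0.115). The library labelled shRNA 1 replicate 2 of day 11 had 19.3 normalized reads of Zbtb9, within the control range of 12.1 to 20, so day 11 directions that need it are given with and without it below. At day 3, shRNA 1 replicate 2 (7.41) and shRNA 2 replicate 1 (8.99) also lay within the control range of that day, 6.35 to 12.6.

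In control cells the members differed widely in level. Per kilobase of exon, Fbln2 had the highest level on every day, from 8921 ± 289 normalized reads per kilobase (SD, n = 4) at day 0 to 14062 ± 1165 at day 11. Lox (7050 ± 285), Loxl1 (4573 ± 336) and Emilin1 (1742 ± 68.8) followed at day 0, each apart from its neighbours by more than their SDs. Fbn1 (546 ± 57.7), Fbln1 (457 ± 20.8) and Fbln5 (377 ± 8.89) came next, and Loxl2 was far below them at 7.06 ± 3.08. Eln was at 1.77 ± 0.591 and Fbn2 at 0.121 ± 0.094 normalized reads per kilobase. At day 3 Lox (1260 ± 105) and Emilin1 (1251 ± 34.8) differed by less than their SDs, as did Fbln5 (263 ± 2.2) and Fbn1 (250 ± 14.2). Eln and Fbn2 had the lowest levels of the 10 on all days, although Eln is the core protein of the mature fibre.

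**Figure D1:**
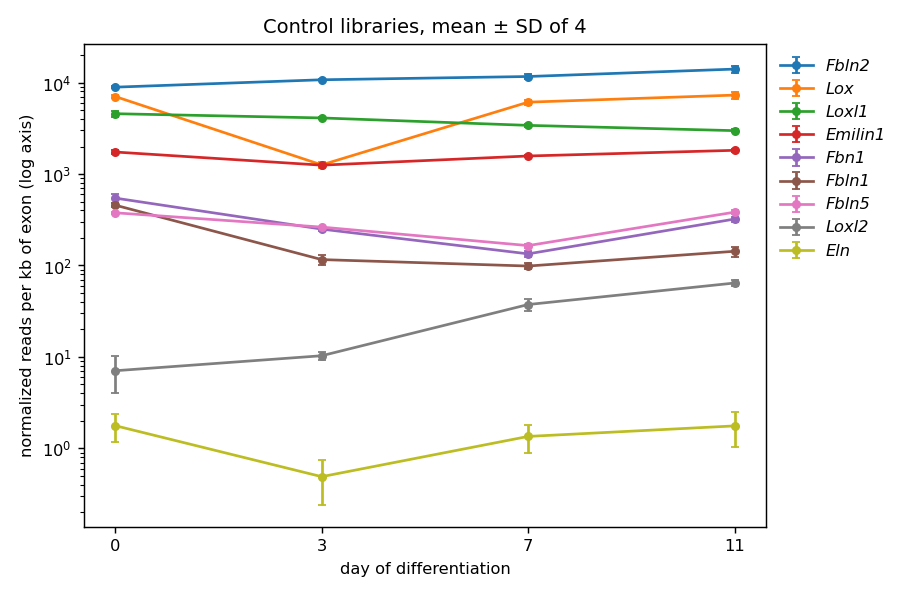
Mean normalized reads per kilobase of exon (log axis) in the 4 control libraries of each day, with SD bars, for 9 of the 10 genes against the day of differentiation. Fbln2 lies on top on each day, Lox drops at day 3 and returns, Loxl2 climbs from 7.06 to 64.3, and Eln stays below 2; Fbn2, at 0.152 or less, is not drawn.

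The time course in control cells shows how these genes moved over the days without knockdown. The medium changed along with the days, so day and medium cannot be told apart. Of the 8 members with enough reads to be tested, 8 changed at day 3 against day 0 (2 higher, 6 lower), where 76.6% of all genes tested were called. At day 7 all 8 tested members changed again (2 higher, 6 lower, beside 69.1% of all genes), and at day 11 5 of 8 did (2 higher, 3 lower, beside 64.6%). The members' median log2 change was -0.48, -0.30 and 0.03 at days 3, 7 and 11, and that of all genes tested was 0.00, -0.01 and 0.01. When all 32 libraries were fitted together, the day 7 calls of Lox and Emilin1 were lost (limma adjusted p = 0.143 and 0.232), as was the day 3 call of Loxl1 (0.088). Eln and Fbn2 had too few reads to enter these fits.

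Lox, the founding member of the lysyl oxidase family, had the deepest fall of the 8 tested members at day 3. Its control libraries had 34550, 33461, 34876 and 31855 normalized reads at day 0 and 5456, 5858, 6111 and 6656 at day 3. The day 3 libraries all lay far below those of day 0, a mean 5.6-fold lower (log2 change -2.41, limma adjusted p = 7.29e-19). At day 7 the level was back to 29213 ± 1715 (SD, n = 4), still lower than at day 0 by the test (log2 change -0.20, adjusted p = 0.00499), a call that was lost when all 32 libraries were fitted together (adjusted p = 0.143). By day 11, at 34897 ± 2894, it did not pass (log2 change 0.05, adjusted p = 0.501).

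Loxl1, the lysyl oxidase best known for its part in elastic fibre upkeep, declined over the course instead. Its control mean went from 15077 ± 1109 (SD, n = 4) at day 0 through 13549 ± 349 and 11237 ± 501 to 9839 ± 421 at day 11. The log2 changes against day 0 were -0.15, -0.41 and -0.60, and all 3 passed the limma test, the first not when all 32 libraries were fitted together (adjusted p = 0.088). Loxl2, which acts on basement membrane collagen, went the other way. Its control libraries had 21.6 to 55.7 normalized reads at day 0, 163 to 229 at day 7 and 316 to 385 at day 11. The groups did not overlap, and the mean was 9.1-fold higher at day 11 than at day 0 (log2 change 2.65, limma adjusted p = 9.6e-16).

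Fibrillin 1 and the fibulins also moved apart. Fbn1 fell to 24.6% of its day 0 mean at day 7 and stood at 58.9% at day 11 (log2 changes -1.95 and -0.73, limma adjusted p = 4.56e-17 and 1.2e-09). Fbln1, which binds fibronectin and elastin, fell to 25.3%, 21.6% and 31.3% of its day 0 mean at days 3, 7 and 11. Fbln5, which brings lysyl oxidases and elastin together on the microfibril, fell to 43.8% at day 7 and was at 102% at day 11, where it did not pass the test (adjusted p = 0.646). Fbln2, abundant throughout, rose to 158% at day 11 (log2 change 0.63, limma adjusted p = 1.27e-14). Emilin1, a microfibril-associated glycoprotein, fell to 71.8% at day 3 (log2 change -0.46, adjusted p = 7.55e-14) and was at 104% at day 11 (adjusted p = 0.143).

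The main question of the design was how Zbtb9 knockdown cells differed from control cells at each time point. At day 0, 4 of the 8 members tested changed (Fbln5 higher, Fbln1, Fbln2 and Loxl1 lower), where 3.25% of all genes tested were called. At day 3, 2 of 8 changed (Lox and Emilin1, both lower, beside 26.7% of all genes). At day 7, 6 of 8 changed (Loxl2 higher, Lox, Loxl1, Fbn1, Fbln1 and Fbln5 lower, beside 47.6%), and at day 11, 4 of 8 (Loxl2 higher, Lox, Loxl1 and Fbln1 lower, beside 33.0%). Read against that background, the count at day 3 was close to the share of all genes. The members' median log2 change was -0.24, -0.16, -0.34 and -0.33 at days 0, 3, 7 and 11, while that of all genes tested lay between -0.01 and 0.01. The groups of 4 control and 4 knockdown libraries did not overlap for 6, 3, 6 and 4 of the 8 members on those days, beside 13.9%, 28.3%, 44.2% and 34.3% of all genes tested. The day 0 count of 4 called members was 1 without control replicate 1, 2 or 3 and 2 without shRNA 1 replicate 2, and the day 11 count was 7 without shRNA 2 replicate 1. Because these are bulk samples, fewer cells of a type and less RNA per cell cannot be told apart.

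**Figure D2:**
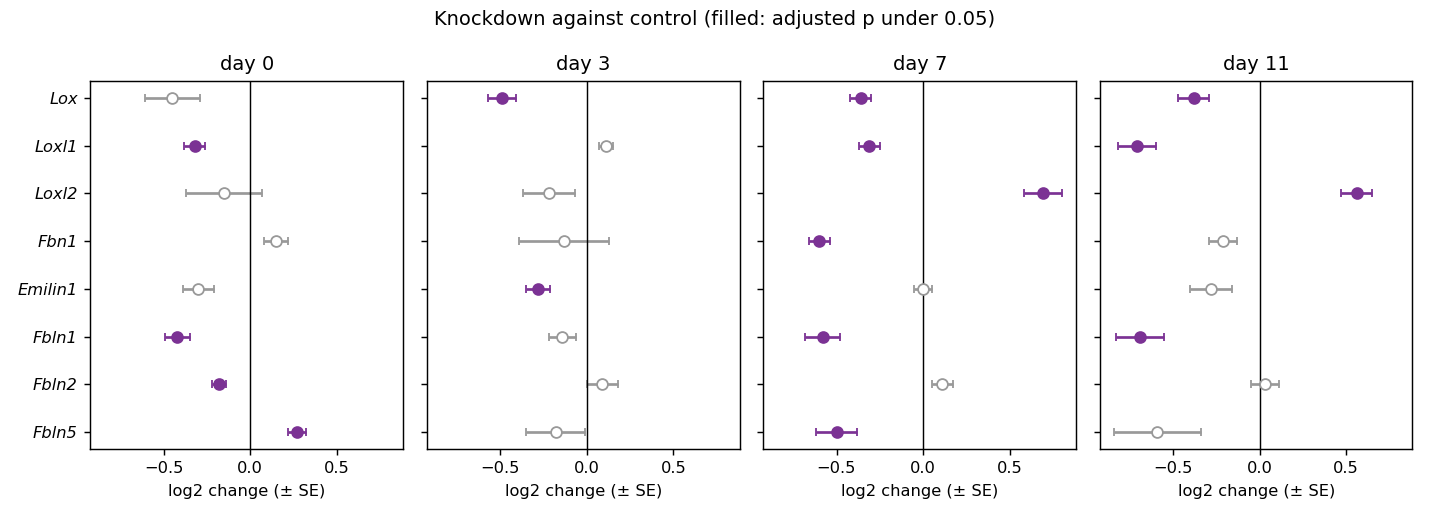
Log2 change of the 8 tested members in the 4 knockdown against the 4 control libraries of each day, with SE bars; filled points have an adjusted p under 0.05 and open points do not. Loxl2 stands to the right at days 7 and 11, Lox lies left of 0 on all 4 days (open at day 0), and Emilin1 lies at 0 at day 7.

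The joint comparison treats the libraries of both shRNAs as 1 group, and these were not alike. With the shRNAs as separate groups in the fit and their effects averaged, 6 members were called at day 3 and 7 at day 11, against 2 and 4 with 1 knockdown group. Of all genes tested, that fit called 40.1% at day 3 and 45.8% at day 11, and 3331 genes at day 0 against 430. Changes that passed in this fit and not with 1 knockdown group included those of Emilin1 at days 0 and 11 (-0.30 and -0.28, limma adjusted p = 1.17e-08 and 0.000587), Fbln5 at days 3 and 11 (-0.18 and -0.59, 0.000598 and 0.000337), Fbn1 at days 3 and 11 (-0.13 and -0.21, 0.0234 and 0.00118) and Fbln2 at day 3 (0.09, 0.0101). At day 3 the averages of Fbln5, Fbn1 and Fbln2 joined opposite changes with shRNA 1 and shRNA 2 (-0.51 and 0.15, -0.58 and 0.32, -0.10 and 0.27). Neither shRNA showed the averaged value, and the error of this fit leaves out the spread between the shRNAs. Calls with a single shRNA are therefore given beside the joint ones where they differ.

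Among the crosslinking enzymes, Lox was lower in every knockdown library than in every control library of the same day. At day 0 the 2 shRNA 1 libraries had 19204 and 19446 normalized reads of Lox and the 2 shRNA 2 libraries 30407 and 31265, against 34550, 33461, 34876 and 31855 in the controls. Both shRNA 1 libraries were thus far below the controls, and those of shRNA 2 just below. The joint change of -0.45 did not pass the test (limma adjusted p = 0.181), but did so with the shRNAs as separate groups (adjusted p = 7.38e-14) and in the fit of all 32 libraries (adjusted p = 0.0256). The shRNA 1 change was -0.78 ± 0.03 (SE, limma adjusted p = 8.25e-18) and the shRNA 2 change -0.12 ± 0.03 (adjusted p = 0.00677), which did not pass without shRNA 2 replicate 1 (adjusted p = 0.141), with no filter (0.0537) or with neither trend nor robust fit (0.155). The difference between the shRNAs, 0.65 on the log2 scale, passed its own test (limma adjusted p = 2.28e-14).

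At day 3, when Lox was at its lowest, the shRNA 1 libraries had 3867 and 3856 normalized reads, the shRNA 2 libraries 4915 and 4329, and the controls 5456, 5858, 6111 and 6656. The knockdown mean was 70.5% of the control mean (log2 change -0.49 ± 0.08, limma adjusted p = 0.000965). The day 7 mean was 77.2% of control (22556 ± 1704 and 29213 ± 1715, SD, n = 4 each, log2 change -0.36, limma adjusted p = 0.000139). The day 11 mean was 76.6% of control (26715 ± 3296 and 34897 ± 2894, log2 change -0.38, limma adjusted p = 0.0081). These 3 falls were called in all 8 fits that left out 1 library. At days 7 and 11 the lower libraries were those of shRNA 2, at 21033 to 21164 and 22845 to 25418, against 23699 to 24330 and 28162 to 30436 with shRNA 1. The order of the shRNAs was thus the reverse of that at day 0; the shRNA differences of -0.18 and -0.27 on these days passed (limma adjusted p = 0.0392 and 0.0319), but at day 7 not without any 1 of the 4 knockdown libraries or control replicate 1 (highest adjusted p = 0.232), and at day 11 not without shRNA 1 replicate 2 (adjusted p = 0.175) or shRNA 2 replicate 2 (adjusted p = 0.23). Both were also lost with no filter (0.0832 and 0.0598) and with neither trend nor robust fit (0.169 and 0.103), and that of day 7 rescaled to equal totals (0.0798).

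Loxl1 fell with knockdown on 3 of the 4 days. At day 11 its libraries had 5827 and 4633 normalized reads with shRNA 1 and 7219 and 6360 with shRNA 2, against 10267, 9824, 9995 and 9270 in the controls. Every knockdown library was below every control, the mean at 61.1% of the control mean (log2 change -0.71 ± 0.11, limma adjusted p = 0.000773), and the call held in all 8 fits without 1 library. At day 7 the mean was 80.2% of control (log2 change -0.31, limma adjusted p = 0.000312). At day 0 it was 79.4% (log2 change -0.32, limma adjusted p = 0.023), a call lost without shRNA 1 replicate 2 or control replicate 1, 2 or 3 (highest adjusted p = 0.0929). At day 3 the libraries had 14162 to 15093 normalized reads with knockdown and 13082 to 13925 in controls. The groups did not overlap and the knockdown libraries were the higher ones, but the joint change of 0.11 did not pass (limma adjusted p = 0.0559). It passed with the shRNAs as separate groups (adjusted p = 0.00463) and without shRNA 2 replicate 1 (adjusted p = 0.0448). It also passed narrowly with no filter (0.0488), a filter at 50 in place of 10 (0.0489) and voom on rebuilt reads (0.0497). The changes with shRNA 1 and shRNA 2 alone, 0.11 each, passed (limma adjusted p = 0.017 and 0.0315), the first not without shRNA 1 replicate 1 or control replicate 1 (highest adjusted p = 0.181) and the second not without shRNA 2 replicate 2 or control replicate 1, 2 or 3 (highest adjusted p = 0.371). With neither trend nor robust fit both were lost (0.117 and 0.16), and the second also with no filter (0.0746) or centred on the median (0.0516).

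Loxl2 was the 1 member called higher in the joint comparison at days 7 and 11. At day 7 it had 304 and 311 normalized reads with shRNA 1 and 366 and 399 with shRNA 2, against 163, 229, 222 and 193 in the controls. At day 11 it had 489 and 548 with shRNA 1 and 499 and 611 with shRNA 2, against 336, 352, 316 and 385. The knockdown libraries of both days exceeded all controls, at 171% and 155% of the control mean (log2 changes 0.69 ± 0.11 and 0.56 ± 0.09, limma adjusted p = 0.000135 and 0.000577). Both calls held in all 8 fits without 1 library and with each shRNA. At days 0 and 3 the groups overlapped, with 18.5 to 61.3 normalized reads in all 16 libraries, and the joint changes of -0.15 and -0.22 did not pass (limma adjusted p = 0.739 and 0.299). With shRNA 1 alone Loxl2 was lower at day 3, at 25 and 46.6 normalized reads against 48.9 to 61.3 in controls (-0.45, limma adjusted p = 0.0195), a call lost without its replicate 1 (adjusted p = 0.52). In the annotation, 5.57% of the exon bases of Loxl2 lie opposite Gm27177, and without a stated use of strand in counting the 2 cannot be told apart there.

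**Figure D3:**
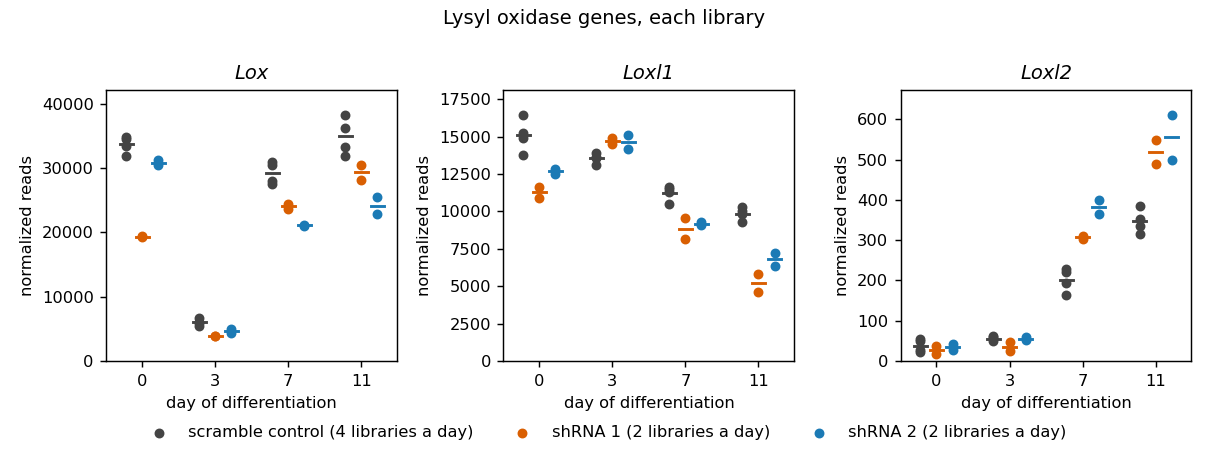
Normalized reads of Lox, Loxl1 and Loxl2 in each of the 32 libraries by day (control grey, shRNA 1 orange, shRNA 2 blue), with a bar at each group mean and axes from 0. Lox dips in all groups at day 3, Loxl1 ends lower with both shRNAs (5230 and 6790 against 9839 at day 11), and Loxl2 ends higher (519 and 555 against 347).

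Among the fibre proteins, Fbn1 (chr2:125300594-125507993, GRCm38) showed the plainest fall at day 7. Its libraries had 1070 and 974 normalized reads with shRNA 1 and 1093 and 1084 with shRNA 2, against 1537, 1772, 1553 and 1650 in the controls. The knockdown libraries were all lower and lay close together, at 64.8% of the control mean (log2 change -0.60 ± 0.06, limma adjusted p = 1.07e-06), and the call held in all 8 fits without 1 library. At day 3 the shRNAs went opposite ways: 2115 and 1867 with shRNA 1, 4061 and 3587 with shRNA 2, and 2852, 2962, 3045 and 3259 in the controls. Fbn1 fell with shRNA 1 (log2 change -0.58, limma adjusted p = 1.34e-09) and rose with shRNA 2 (0.32, adjusted p = 4.44e-05), and the difference of 0.91 ± 0.06 passed (limma adjusted p = 1.17e-11). The joint change at day 3 was -0.13 and did not pass (adjusted p = 0.758). The joint changes of days 0 and 11 were 0.15 (adjusted p = 0.292) and -0.21 (adjusted p = 0.0576). That of day 11 passed without either shRNA 2 library (adjusted p = 0.0276 without replicate 1 and 0.0251 without replicate 2) and rescaled to equal totals (0.0355). With shRNA 1 alone Fbn1 was lower at day 11 (log2 change -0.36, limma adjusted p = 7.42e-05). The shRNA 2 change of 0.25 at day 0 (adjusted p = 0.11) passed without control replicate 4 (adjusted p = 4.53e-09), the control with the highest level, 7657. Without that control the shRNA 1 change of 0.05 became 0.12 and passed (adjusted p = 0.00513), as did the difference between the shRNAs (0.19, adjusted p = 0.000106). The annotation places 20.1% of the exon bases of Fbn1 opposite Gm9913, a gene on the other strand.

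Fbln1 (chr15:85205949-85286535) and Fbln5 (chr12:101746565-101819055) are the 2 fibulins among the members that fell at day 7, although they went opposite ways at day 0, and the 250 bases before their RefSeq start sites (GRCm38.p6, Fbln1 on the plus strand at chr15:85205699-85205948 and Fbln5 on the minus strand at chr12:101819120-101819369) are shown for that shared day 7 fall. Each gene has a second RefSeq start site inside the outermost one used here. Capitals mark a GC box (GGGCGG or its reverse complement CCGCCC) and a CCAAT box (CCAAT or ATTGG), and a TATA box (TATAAA or TTTATA) was searched as well, on both strands.
Fbln1: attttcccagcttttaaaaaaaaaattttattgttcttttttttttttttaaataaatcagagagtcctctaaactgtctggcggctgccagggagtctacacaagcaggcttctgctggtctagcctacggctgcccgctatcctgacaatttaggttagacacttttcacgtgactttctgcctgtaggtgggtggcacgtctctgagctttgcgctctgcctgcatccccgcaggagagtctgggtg
Fbln5: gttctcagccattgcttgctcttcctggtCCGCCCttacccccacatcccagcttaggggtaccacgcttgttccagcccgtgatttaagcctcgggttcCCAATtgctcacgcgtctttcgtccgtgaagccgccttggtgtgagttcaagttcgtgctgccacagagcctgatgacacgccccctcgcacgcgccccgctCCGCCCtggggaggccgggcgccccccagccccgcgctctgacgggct
The Fbln5 window holds 2 GC boxes, first bases at -221 and -48 from the start, and 1 CCAAT box at -150, while none of these letters occur in the Fbln1 window shown. The window before the second Fbln1 start (chr15:85205758-85206007) does hold a GC box, at -11, so the contrast depends on the start site chosen. Of 32851 RefSeq windows of the same length, 32.7% hold a GC box, 33.8% a CCAAT box and 12.4% a TATA box.

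Fbln1 was lower in all knockdown than in all control libraries at days 0, 7 and 11. At day 0 it had 1548 and 1636 normalized reads with shRNA 1 and 1362 and 1344 with shRNA 2, against 2004, 2011, 2093 and 1872 in the controls. At day 11 it had 379 and 278 with shRNA 1 and 486 and 366 with shRNA 2, against 667, 681, 512 and 640. The knockdown means were 73.8%, 65% and 60.3% of the control means at days 0, 7 and 11 (log2 changes -0.42, -0.58 and -0.69, limma adjusted p = 0.00821, 0.000183 and 0.00421). All 3 calls held in all 8 fits without 1 library. With each shRNA alone Fbln1 was also lower on those days, although at day 11 the shRNA 2 change of -0.52 did not pass without its replicate 2 (limma adjusted p = 0.162). At day 3 the groups overlapped, at 435 to 482 with knockdown and 455 to 594 in controls (log2 change -0.14, limma adjusted p = 0.216).

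Fbln5 was higher with knockdown at day 0 and lower at day 7. At day 0 it had 3065 and 2956 normalized reads with shRNA 1 and 3361 and 3296 with shRNA 2, against 2559, 2615, 2556 and 2687 in the controls, so that every knockdown library was above every control (log2 change 0.27, limma adjusted p = 0.0149, not called without control replicate 1, 2 or 3, highest adjusted p = 0.0688). The day 0 call was also lost in the fit of all 32 libraries (adjusted p = 0.437). At day 7 it had 691 and 622 with shRNA 1 and 990 and 919 with shRNA 2, against 1096, 1126, 1113 and 1225. Now every knockdown library was below every control, at 70.7% of the control mean (log2 change -0.50 ± 0.12, limma adjusted p = 0.00588). The shRNA 2 change of -0.24 on that day (adjusted p = 0.00505) was lost without shRNA 2 replicate 2 (adjusted p = 0.0993). At days 3 and 11 the joint changes of -0.18 and -0.59 did not pass (limma adjusted p = 0.491 and 0.108). The day 11 change passed without shRNA 2 replicate 1 (adjusted p = 0.0198) and in the fit of all 32 libraries (adjusted p = 0.0101).

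For Fbln5 the shRNAs differed on every day. At day 3 the shRNA 1 libraries had 1274 and 1237 normalized reads, the shRNA 2 libraries 2044 and 1997, and the controls 1837, 1810, 1822 and 1802. The first pair lay below and the second above the 4 tightly grouped controls (log2 changes -0.51 and 0.15, difference 0.66 ± 0.06, limma adjusted p = 1.15e-10). The shRNA 2 rise did not pass without either of its libraries or control replicate 4 (highest adjusted p = 0.16). At day 11 the libraries had 1476 and 1087 with shRNA 1, 2618 and 2108 with shRNA 2, and 2777, 2724, 2499 and 2598 in the controls. Both shRNA 1 libraries were far below the controls, at 48.4% of their mean (log2 change -1.02 ± 0.11, limma adjusted p = 2.96e-05), while the shRNA 2 change of -0.17 did not pass (adjusted p = 0.282). The day 7 difference of 0.51 (adjusted p = 5.76e-05) and the day 11 difference of 0.85 (adjusted p = 0.00118) held in all 8 fits without 1 library each, the library labelled shRNA 1 replicate 2 of day 11 included. The difference of 0.14 at day 0 (adjusted p = 0.0191) was lost without shRNA 1 replicate 2 or either shRNA 2 library (highest adjusted p = 0.156).

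Fbln2 (chr6:91212455-91272540), the most abundant member, was called in the joint comparison at day 0 only. At day 0 it had 49367, 51697, 50272 and 49036 normalized reads with knockdown and 55216, 59326, 55699 and 57058 in controls, a mean at 88.2% (log2 change -0.18, limma adjusted p = 0.0352). That call was lost in 7 of the 8 fits that left out 1 library, all but the one without shRNA 2 replicate 2 (highest adjusted p = 0.131), and in the fit of all 32 libraries (adjusted p = 0.158). At day 3 the shRNA 1 libraries had 63106 and 64258, the shRNA 2 libraries 82519 and 83888, and the controls 67645 to 69212. The 2 shRNA 2 libraries were above and the 2 shRNA 1 libraries below all controls, and the difference of 0.37 passed (limma adjusted p = 1.92e-09). Fbln2 rose with shRNA 2 (log2 change 0.27, limma adjusted p = 4.05e-08) and fell with shRNA 1 (-0.10, adjusted p = 0.0142), and the joint change of 0.09 did not pass (adjusted p = 0.509). The shRNA 1 call was lost without either shRNA 1 library or control replicate 3 (highest adjusted p = 0.149). At days 7 and 11 the groups overlapped and the joint changes of 0.11 and 0.03 did not pass (limma adjusted p = 0.139 and 0.815); that of day 7 passed without shRNA 2 replicate 1 (adjusted p = 0.0331) and with the shRNAs as separate groups (adjusted p = 0.0404). With shRNA 1 alone Fbln2 was higher at day 7, at 86898 and 81312 normalized reads against 70235 to 79769 in controls (0.17, limma adjusted p = 0.0103), which was lost without its replicate 1 (adjusted p = 0.173).

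Emilin1 (chr5:30913402-30921277) was lower with knockdown mainly through shRNA 1. At day 3 it had 4488 and 4622 normalized reads with shRNA 1 and 5290 and 5927 with shRNA 2, against 6416, 6185, 6043 and 6060 in the controls. All 4 knockdown libraries were lower, and the joint change of -0.28 passed (limma adjusted p = 0.0137). At day 0 the libraries were again all lower, at 5886, 6349, 7859 and 7923 against 8181 to 9004, but the joint change of -0.30 did not pass (adjusted p = 0.102). It passed without shRNA 2 replicate 2 (adjusted p = 0.0422). Emilin1 was lower at day 0 with shRNA 1 (-0.48, limma adjusted p = 2.04e-11) and with shRNA 2 (-0.12, adjusted p = 0.0254), the latter not without either shRNA 2 library or control replicate 2 or 3 (highest adjusted p = 0.178), nor with no filter (0.112), rescaled to equal totals (0.07) or with neither trend nor robust fit (0.194). The shRNA difference passed at days 0, 3 and 11 (0.36, 0.29 and 0.47, limma adjusted p = 1.27e-07, 4.38e-05 and 0.000669) and did so in all 8 fits without 1 library. At day 7 the joint groups were alike in mean, at 7784 ± 519 against 7779 ± 147 (SD, n = 4 each). At day 11 Emilin1 was lower with shRNA 1 (-0.52, limma adjusted p = 1.34e-05), while the joint change of -0.28 did not pass (adjusted p = 0.111, or 0.0276 without shRNA 2 replicate 1 and 0.0243 in the fit of all 32 libraries).

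Eln (chr5:134702593-134747323) was near the floor of detection in these cells. Its control libraries had 15.2, 10.1, 11.3 and 20.7 normalized reads at day 0, 4.21, 5.29, 1.05 and 5.32 at day 3, 14.8, 13.2, 8.74 and 6.93 at day 7, then 21.1, 10.3, 17.1 and 8.36 at day 11. With shRNA 1 it had 0.924 and 2.66 at day 0, 1.14 and 5.29 at day 3, 1.01 and 0 at day 7, and 1.02 and 0 at day 11. With shRNA 2 it had 14.1 and 9.27, 7.99 and 6.59, 4.2 and 1.95, and 22.3 and 9.56 on the same days. With shRNA 1 no library reached the controls at days 0, 7 and 11, where each held 3 reads or fewer, and with shRNA 2 none did at day 7. A library with 0 reads could have held up to 3 at this depth. Eln passed the filter on low values in 1 fit alone, that of the shRNAs as separate groups at day 11, and only through 1 control and 1 shRNA 2 library, where it is high, so that fit is not used for it. With no filter on low values Eln entered the joint fits and was called at day 7 (lower, limma adjusted p = 0.00505) but not on the other days (lowest adjusted p = 0.325). Fbn2, the fibrillin of developing tissue, had 3.72 normalized reads or fewer in each of the 32 libraries, 12 of them at 0, and allows no comparison.

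**Figure D4:**
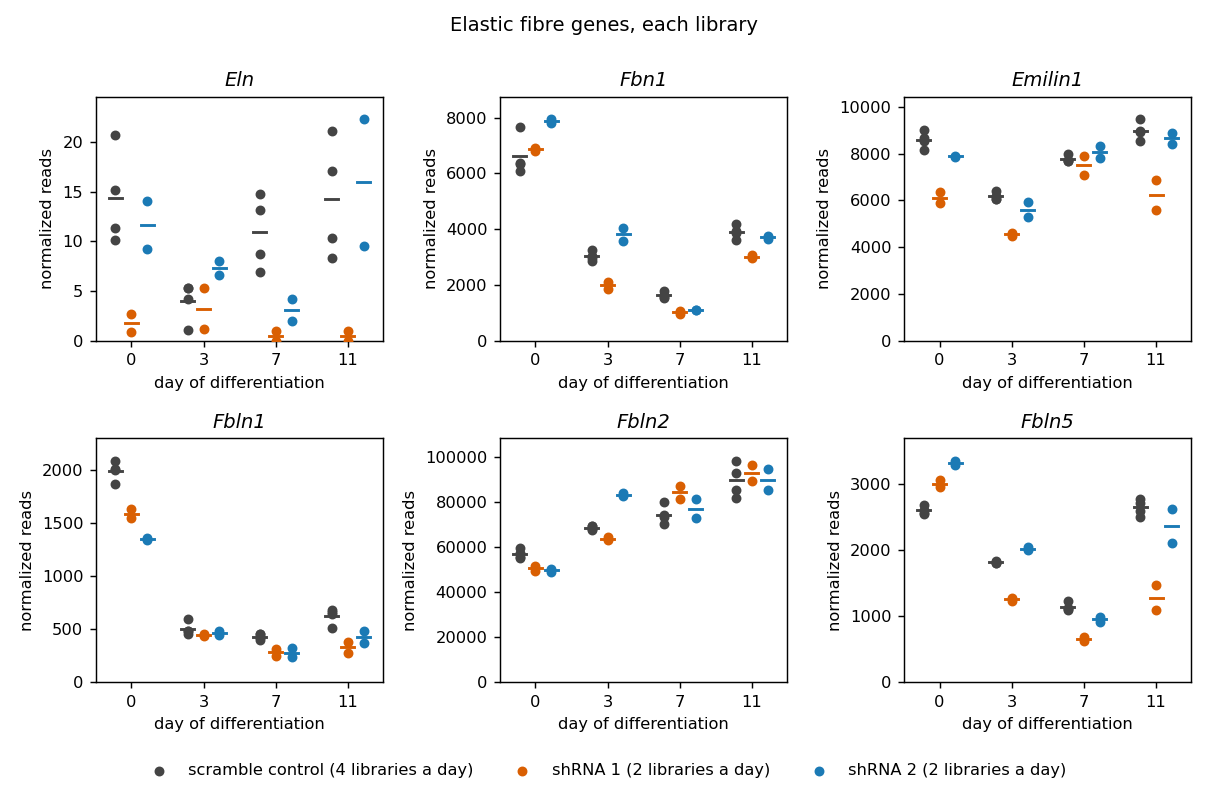
Normalized reads of Eln, Fbn1, Emilin1, Fbln1, Fbln2 and Fbln5 in each library by day (control grey, shRNA 1 orange, shRNA 2 blue), with a bar at each group mean and axes from 0. Fbn1 and Fbln5 at day 3 show shRNA 1 below and shRNA 2 above the controls, Fbn1 at day 7 shows both below (1022 and 1089 against 1628), and the Eln axis ends near 22.

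Counted over the members, 6, 3, 6 and 4 were called in the same direction with both shRNAs at days 0, 3, 7 and 11, beside 5.62%, 19.2%, 35.6% and 23.6% of all genes tested. The 2 contrasts share the control libraries. At day 0 these were Fbln5, higher, and Lox, Loxl1, Emilin1, Fbln1 and Fbln2, lower, and at day 7 they were the 6 of the joint comparison. In these counts, beside the losses given above, the call with 1 shRNA was lost without single libraries for Loxl1 and Emilin1 with shRNA 2 at day 0 (highest adjusted p = 0.164 and 0.178), Emilin1 with shRNA 2 at day 3 (0.455) and Lox with shRNA 1 at day 11 (0.111). Opposite calls with the 2 shRNAs were made at day 3 for Fbn1, Fbln5 and Fbln2, lower with shRNA 1 and higher with shRNA 2, where 1.28% of all genes tested had opposite calls. The shRNAs differed from each other for 4, 5, 2 and 5 of the 8 members on the 4 days, Eln left out, beside 34.7%, 19.4%, 16.2% and 21.7% of all genes tested. The same-direction count was 3 at day 0 without shRNA 2 replicate 1 and 1 at day 3 without control replicate 1. The count of shRNA differences was 2 at day 0 without shRNA 1 replicate 2, 1 at day 7 without any 1 knockdown library or control replicate 1, and 3 at day 11 without the library labelled shRNA 1 replicate 2. At day 11 Loxl1 was among the 5, lower with shRNA 1 by 0.37 on the log2 scale (limma adjusted p = 0.00952), which was lost without the library labelled shRNA 1 replicate 2 (adjusted p = 0.106) or shRNA 2 replicate 1 (adjusted p = 0.0979).

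**Figure D5:**
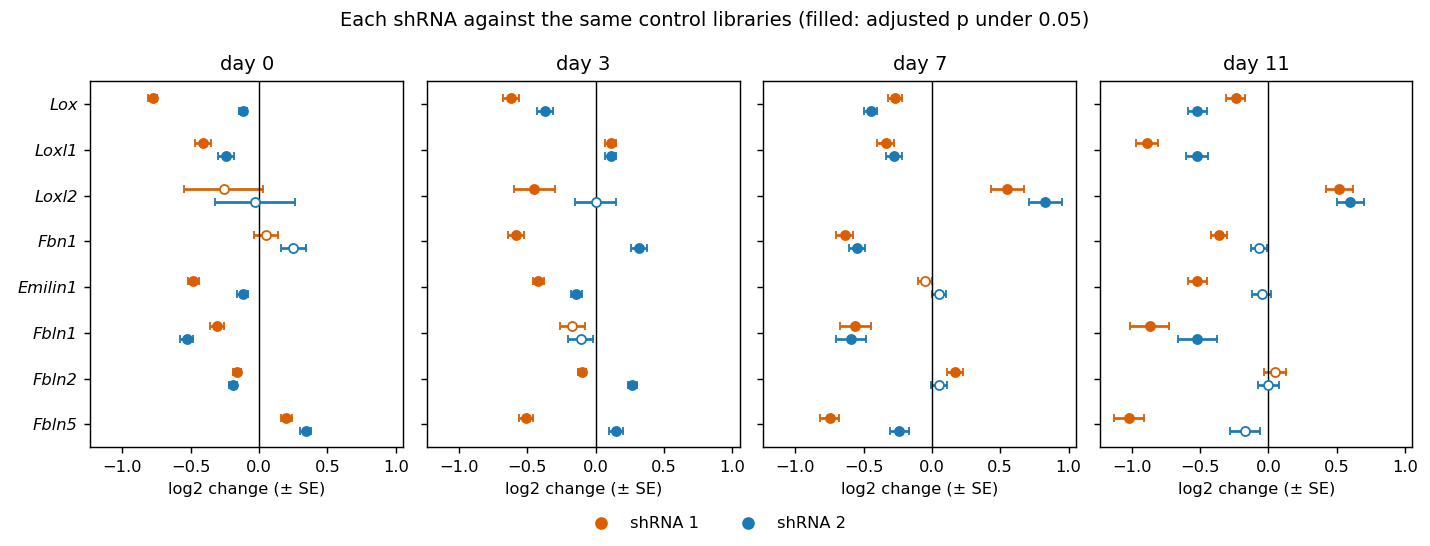
Log2 change of the 8 members tested on all days with shRNA 1 (orange) and shRNA 2 (blue) against the same 4 control libraries of each day, with SE bars; filled points have an adjusted p under 0.05. The shRNAs lie on opposite sides of 0 at day 3 for Fbn1, Fbln2 and Fbln5, where Fbn1 has the widest gap of those drawn (-0.58 and 0.32).

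Whether the knockdown effect itself changed from day 0 was tested over all 32 libraries. At day 3, 1 of 8 members passed (Loxl1, beside 6.57% of all genes tested), at day 7, 4 of 8 (Loxl2 and Fbln2 higher, Fbn1 and Fbln5 lower, beside 29.9%), and at day 11, 3 of 8 (Loxl2 higher, Loxl1 and Fbln5 lower, beside 23.2%). The day 3 count was 2 without either shRNA 1 library of day 3. The Fbln5 effect shifted by -0.77 on the log2 scale from day 0 to day 7 (limma adjusted p = 0.0231, or 0.0593 without shRNA 1 replicate 2 of day 7), and by -0.86 to day 11 (adjusted p = 0.0144). The Fbn1 effect shifted by -0.75 at day 7 (limma adjusted p = 0.00762) and the Loxl2 effect by 0.84 (adjusted p = 0.0066). Lox, lower in the knockdown than in the control libraries on all days, gave shifts of -0.04, 0.09 and 0.07 that did not pass (adjusted p = 0.931, 0.74 and 0.81). These joint Lox shifts average shRNAs that moved opposite ways. With shRNA 1 the Lox change went from -0.78 at day 0 to -0.27 and -0.24 at days 7 and 11. With shRNA 2 it went from -0.12 to -0.45 and -0.52. The Fbln5 change went from 0.20 at day 0 to -1.02 at day 11 with shRNA 1, and from 0.34 to -0.17 with shRNA 2. Shifts were not tested for each shRNA.

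Other settings ended further calls of the members. With neither trend nor robust fit these included Loxl1 and Fbln2 at day 0 in the joint comparison (limma adjusted p = 0.0625 and 0.0892), Fbln2 with shRNA 1 at days 3 and 7 (0.103 and 0.0774), and the shRNA differences of Fbln5 at day 0 (0.0673) and Loxl1 at day 11 (0.0587). That setting also ended the calls of Loxl1 with shRNA 2 at day 0 (0.0766) and Emilin1 with shRNA 2 at day 3 (0.128). Lox with shRNA 1 at day 11 (0.0564) and the Lox shRNA difference at day 3 (0.145) were lost as well. With no filter that Emilin1 call and the Lox difference of day 3 were also lost (0.0855 and 0.126). The joint Fbln2 call of day 0 was lost rescaled to equal totals (0.0553). Loxl2 with shRNA 1 at day 3 was lost with no filter (0.0648) and with voom on rebuilt reads (0.0717).

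Other genes of the fibre and of its surroundings were read from 3 lists. Of the microfibril and elastic fibre partners (latent TGF-beta binding proteins, microfibril-associated proteins, ADAMTS-like proteins and others), 0 rose and 3 fell of 16 tested at day 0, 0 and 4 of 13 at day 3, 2 and 8 of 14 at day 7, and 1 and 5 of 15 at day 11. Beside the 3.25%, 26.7%, 47.6% and 33.0% of all genes called on those days, the counts of days 3 and 11 were close to the background. Ltbp4, which helps place elastin and fibulin 5 on microfibrils, fell on all 4 days. Its knockdown means were 848 ± 92.9, 2371 ± 141, 1332 ± 295 and 483 ± 36.7 normalized reads on these days, and its control means 1105 ± 36.1, 3513 ± 149, 2517 ± 76 and 938 ± 60.1 (SD, n = 4 each). The Ltbp4 groups did not overlap on any day, and its log2 change reached -0.90 at days 7 and 11 (limma adjusted p = 0.000369 and 4.15e-06); at day 0 the call (-0.37, adjusted p = 0.0218) was lost without any 1 control library or shRNA 1 replicate 2 (highest adjusted p = 0.0919). Ltbp2, a microfibril-bound relative, fell at days 3, 7 and 11 (log2 changes -0.30, -0.67 and -0.60). Adamtsl4, a secreted protein that binds fibrillin 1, fell at days 0, 3 and 7 (-0.31, -0.42 and -0.55), the first call lost in 7 of the 8 fits without 1 library (all but that without shRNA 2 replicate 2).

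Of the list of crosslinking and its activation, 0 rose and 1 fell of 15 tested at day 0, 1 and 2 at day 3, 6 and 7 at day 7, and 6 and 4 at day 11. The share called at day 3 was below the 26.7% of all genes, while 13 of 15 at day 7 and 10 of 15 at day 11 stood beside 47.6% and 33.0%. Plod2, a lysyl hydroxylase that prepares collagen for crosslinking, rose at days 3, 7 and 11 (log2 changes 0.27, 0.61 and 0.94, limma adjusted p = 0.00253, 2.12e-06 and 0.00162), reaching 5711 ± 1182 against 2888 ± 400 normalized reads (SD, n = 4 each). The collagen prolyl hydroxylase genes split. P4ha1 rose at days 7 and 11 (0.39 and 0.62, limma adjusted p = 0.00021 and 0.000145) after a fall of 0.15 at day 0 (log2 change -0.15, adjusted p = 0.0386, lost in all 8 fits without 1 library). P4ha3 fell at days 3, 7 and 11 (log2 changes -0.39, -0.67 and -0.68), the first call lost without either shRNA 1 library or control replicate 1, 3 or 4.

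Of the TGF-beta ligands, receptors and targets, a pathway that drives matrix genes and whose ligands are held in microfibrils, 0 rose and 1 fell of 15 tested at day 0, 1 and 5 at day 3, 4 and 5 at day 7, and 4 and 2 at day 11. All genes were called at 3.25%, 26.7%, 47.6% and 33.0%, so that 9 of 15 at day 7 and 6 of 15 at day 11 were close to the background. Tgfbr1, the type I receptor, rose at days 3, 7 and 11 (log2 changes 0.43, 0.54 and 0.32), with the calls of days 3 and 11 lost without several single libraries (highest adjusted p = 0.0813 and 0.107). Itgb1, an integrin chain that binds matrix, fell at days 3, 7 and 11 (-0.19, -0.44 and -0.33), the first call lost without shRNA 2 replicate 1 or control replicate 2, 3 or 4. Tgfbr2, the type II receptor, fell at days 0 and 3 (-0.24 and -0.30) and rose at day 7 (0.35, limma adjusted p = 1.43e-05), the day 0 call lost without either shRNA 1 library or any control. The lists' median log2 changes lay between -0.29 and 0.07, with those of all genes tested between -0.01 and 0.01.

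Markers of cell types were summed per library as normalized reads. Abundant genes weigh most in a sum, and higher or lower refers here to the sum, not to each marker. The sum of the 10 adipocyte markers was higher in all knockdown than in all control libraries on each day. It was 21959 to 23559, 44295 to 59721, 134627 to 203984 and 117509 to 142721 in the order of the days, where the controls had 19721 to 20319, 26457 to 31719, 49534 to 54024 and 56978 to 67190. Of these markers Adipoq, Plin1, Cfd and Lep had 3 reads or fewer in every library of day 0. So had Cidec in every knockdown library of day 0, and Lep in every library of day 3 and every control library of day 11. The 8 fibroblast or preadipocyte markers, which include the line's own type, were lower with knockdown at day 0 (299287 to 342422 against 364123 to 379718) and day 7 (203428 to 234716 against 259280 to 284507), and the groups overlapped at days 3 and 11. The 6 smooth muscle or myofibroblast markers summed to 21035 to 22693 in controls and 21178 to 31056 with knockdown at day 0, and these groups overlapped, as they did at day 7 (1938 to 2068 against 1286 to 2013 with knockdown) and day 11 (4930 to 6435 against 2762 to 5077). The sums were lower with knockdown at day 3 (269 to 359 against 384 to 435). The sum of the 5 epithelial markers was higher in all knockdown than in all control libraries at day 3 (16 to 34.9 against 7.44 to 13.6), day 7 (254 to 991 against 27.7 to 86.6) and day 11 (42.5 to 187 against 9.29 to 18.1). Epcam and Cdh1 were at 3 reads or fewer at day 7. At day 3 so were Epcam, Cdh1, Krt8 and Krt18 in controls and Epcam and Krt18 with knockdown. The 5 endothelial markers were lower with knockdown at day 0 (41.6 to 51 against 62.3 to 77.9) and day 11 (45.7 to 74.5 against 79.9 to 100), and overlapped at days 3 and 7, with Kdr at 3 reads or fewer in nearly every group, and Ptprc of the 4 macrophage markers found in the table was at 3 reads or fewer throughout. The macrophage sums were lower with knockdown at day 0 (471 to 569 against 601 to 670) and day 3 (470 to 631 against 654 to 730), overlapped at day 7, and were higher at day 11 (878 to 1029 against 678 to 801). The part of these marker levels in the members' results was not tested.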

How the data were processed

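RNA of 32 libraries was measured by sequencing. Per the labels' protocols, it was isolated on columns and prepared with the Illumina TruSeq RNA kit. The submitters' processing notes name TopHat2 2.1.0, Bowtie2 2.2.6, SAMtools 1.3.1 and HTSeq 0.6.1. The genome build and the use of strand in counting are not given in the sources used here. The deposited table is named as normalized counts, but the authors' deposited values are on a log2 scale (-1.56 to 17.99). They look like the output of a regularized log transform, which draws genes with few reads towards their mean and so understates their changes.

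Solving the equation of that transform for the reads gave numbers within 0.1 of a whole one for 98.8% of values (20% expected by chance), and in every library for 93.3% of genes. Rebuilt depth was 22280357 to 31073714 reads in genes. The reads serve for the values per library and 1 alternative, and a group is called at the floor if no library of it held over 3 reads, which covers counting error only.

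The deposited values were fitted with limma 3.58.1 (R 4.3.3), using its variance trend and robust moderation, and Benjamini-Hochberg adjustment ran over all genes tested (called: under 0.05). A gene was tested where at least 4 libraries of the fit, or 2 where shRNA 1, shRNA 2 and control were 3 groups, had a value of at least 10 after undoing the log2. Each day had its own fit of knockdown and control. The time course rests on the 16 control libraries, and the day differences on all 32. Alternatives were other filters, scalings and variance settings, a fit of all libraries, voom on rebuilt reads, separate shRNA groups, a replicate block and leaving out each library.

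The members and the gene lists were chosen with earlier results of these data known. All 10 members are named whatever their values, and of each further list the 3 genes called on the most days with the largest change. The labels call replicates biological but do not say that they were separate cultures, so p-values measure the spread between these samples. No library repeats another of its group: in all 32 replicate pairs the rebuilt reads differed beyond sampling noise (a chi-square of 2.92 to 11 times its degrees of freedom). Positions come from GENCODE M21 (GRCm38), in which 20521 gene IDs matched, and the deposited build may differ. Promoter windows come from RefSeq (GRCm38.p6), where 5 members matched and are usable here. Plots were made with matplotlib 3.10.9 in Python 3.11.15.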

Additional observations from a re-analysis of the deposited data

Results flagged for a closer look

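The knockdown effect of 5 members differed between days by the test of that difference over all 32 libraries (limma adjusted p in parentheses). For Loxl1 it was higher at day 3 than at day 0 by 0.43 (0.0123) and shifted by -0.38 at day 11 (0.00985), and both held in all 16 fits that left out 1 library. For Fbln5 it shifted by -0.77 at day 7 (0.0231) and by -0.86 at day 11 (0.0144), the second in all 16 such fits. For Fbn1 it shifted by -0.75 at day 7 (0.00762), also in all 16. For Loxl2 it was higher by 0.84 at day 7 (0.0066) and by 0.71 at day 11 (0.0262). The latter was lost without shRNA 1 replicate 1, control replicate 1 or control replicate 2 of day 0, or without shRNA 2 replicate 2 or control replicate 3 of day 11 (highest adjusted p = 0.0801), and with voom on rebuilt reads (0.0817). For Fbln2 it was higher by 0.29 at day 7 (0.0278), which was lost without control replicate 2 of day 0, shRNA 1 replicate 1 or control replicate 1 of day 7 (highest 0.0674), rescaled to equal totals (0.0688) and centred on the median (0.0543).

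In 3 of 80 groups of 4 libraries, 1 library stood far from the others, where chance gives about 1 in 20 groups. All 3 were groups of Fbn2, which is at the floor. The deposited log2 value was 0.15 in shRNA 1 replicate 1 of day 0, 0.16 in control replicate 2 of day 3 and 0.15 in control replicate 1 of day 7, against 0.05, 0.11 and 0.05 in the nearest other library of each group.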

How the results depend on the processing

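None of the members' calls changed direction in any alternative. Of 155 member counts under settings other than leaving out a library, 11 moved by over 1.5 times. The day 0 knockdown count of 4 was 2 with neither trend nor robust fit, and the same-direction count of 6 was 3. At day 3 the knockdown count of 2 was 6 with the shRNAs as separate groups, and the same-direction count of 3 was 1 with no filter and 1 with neither trend nor robust fit. The shRNA difference count of 2 at day 7 was 1 with no filter, rescaled to equal totals or with neither trend nor robust fit, and the day 11 knockdown count of 4 was 7 with separate shRNA groups. The cause was not tested.

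Leaving out 1 library gave knockdown counts of 1 to 5, 2 to 3, 6 to 7 and 4 to 7 at days 0, 3, 7 and 11, same-direction counts of 3 to 7, 1 to 3, 5 to 6 and 3 to 4, and shRNA difference counts of 2 to 6, 4 to 5, 1 to 2 and 3 to 6 (at day 11 with Eln counted). Control time course counts stayed at 8, 8 and 5. Counts of changed knockdown effects were 1 to 2, 3 to 4 and 2 to 4.

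Replicate numbers were not treated as pairs in the main fits. Correlations of same-numbered deviations were from -0.005 to 0.215 on the same day (median 0.042, 3 of 24 over 0.1), and those of other numbers from -0.215 to 0.139 (median -0.011). Between control days they were from -0.094 to 0.119 (median 0.011), and for other numbers from -0.107 to 0.1 (median -0.002). Same-numbered samples of a day were thus slightly more alike, with a median under the 0.1 set for a block. With a replicate block the 4 knockdown counts, in the order of the days, were 0, 0, 5 and 3, and those of all genes 0, 845, 4112 and 1652 in place of 430, 3506, 6328 and 4382. After day 0 the calls lost with the block were Lox and Emilin1 at day 3 (limma adjusted p = 0.0568 and 0.133), Fbln5 at day 7 (0.0887) and Lox at day 11 (0.104). With neither trend nor robust fit the whole table had 261 calls for knockdown at day 0, 386 in the same direction with both shRNAs at day 0 (748 otherwise), and 1423 and 1018 shRNA differences at days 3 and 7 (2572 and 2179 otherwise). With no filter there were 1710 at day 3, and with separate shRNA groups knockdown had 5317 calls at day 3. Depth limits Eln and Fbn2. With no filter Eln entered the joint fits and was called at day 7 (log2 change -0.40, limma adjusted p = 0.00505).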

Other observations

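For each of the 8 tested members, the genes whose deposited values were most alike over the 32 libraries are given as a description. All libraries share the days of differentiation, and 13557 genes were compared by Pearson r. Fbn1 was most like Adamts5 (r = 0.965) and Pogz (0.956), and Fbln5 most like Adamts5 (0.946) and Fbn1 (0.94). Adamts5, which encodes a protease of the matrix, thus stood first for both. Fbln1 was most like Amot (0.974) and Epha4 (0.972), and Fbln2 most like Tenm4 (0.935) and Angptl6 (0.933). Lox was most like Ephx1 (0.98) and Tpra1 (0.979), Loxl1 most like Abhd2 (0.943) and Atp1b1 (0.939), and Loxl2 most like Bsg (0.979) and Gpi1 (0.977), a glycolytic enzyme. Emilin1 was most like Dcaf8 (0.934) and Snhg18 (0.922).

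After the mean of each of the 12 groups was subtracted, the most alike genes were others in each case. They were Golgb1 (r = 0.846) for Fbn1, Lpar1 (0.874) for Fbln1, Triobp (0.86) for Fbln2, Gas6 (0.88) for Fbln5, Arl13b (0.734) for Lox, Prrx2 (0.841) for Loxl1, Adcy3 (0.689) for Loxl2 and Cenpb (0.875) for Emilin1.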
